A study of Mus musculus with 15 samples.

Results

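The miR-23/24/27 clusters are represented here by the 5 guide-arm entries miR-23a-3p, miR-27a-3p, miR-24-3p, miR-23b-3p and miR-27b-3p. They were taken by name from the table of unique molecular identifier (UMI) counts, where they are 5 of 1994 miRNA and piRNA entries. The rule names the entries and sets no threshold on a measured value, and they were picked with earlier results of these data known. All 5 were above the filter on low counts, and none was listed at 0 in any of the 15 libraries.

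The small RNA libraries were made from microglia, resident macrophages of the brain, sorted from mice that had been injected with the amyloid-binding dye Methoxy-X04 (Me-X04). Phagocytic cells of 5xFAD transgenic mice that carried the dye (TG Me-X04+), cells of the same mice that did not (TG Me-X04-), and cells of WT mice, likewise injected and labelled negative for the dye, gave 5 libraries each. The labels give the TG mice an age of 6 months and the WT mice 2 months, with 5xFAD entered as the strain of all animals, so genotype and labelled age cannot be told apart in any comparison with WT. Ages and group sizes in the methods of the study differ from these. TG libraries of the same number come from the same mouse, and the sorting gate for the dye is what parts their cells. The cells were gated for CD11b, CD45 and CX3CR1, a gate that keeps microglia and that other brain macrophages can also pass.

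Each cluster is a short stretch of genome that is transcribed as 1 precursor and cut into 3 hairpins, from which Dicer releases the mature miRNAs. The a cluster (Mir23a, Mir27a, Mir24-2) and the b cluster (Mir23b, Mir27b, Mir24-1) are copies of each other, and the miR-23 and miR-27 products of the copies have entries of their own in the count table, while both give the same miR-24-3p. In other settings miR-27 is known to act on regulators of lipid metabolism and of macrophage and T cell activation, miR-23a on glutaminase, and miR-24 on regulators of the cell cycle.

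In GRCm38 the a cluster spans 404 bases of chromosome 8, from 84208518 to 84208921 on the plus strand. The Mir23a and Mir27a hairpins overlap no other annotated gene, and Mir24-2 touches an exon of the lincRNA Gm26532. The b cluster spans 792 bases of chromosome 13, from 63300484 to 63301275 on the plus strand, inside the protein-coding gene 2010111I01Rik (Aopep) and opposite an intron of Fancc. There Mir23b is intronic, and Mir27b and Mir24-1 overlap an annotated exon of at least 1 transcript of 2010111I01Rik. RefSeq sequences (GRCm38.p6) matched 4 of the 5 entries by name, and miR-23b-3p was not matched. The 4 matched guides are shown because the comparisons rest on telling them apart, with the seed, bases 2 to 8 from the 5′ end, in capitals.
mmu-miR-23a-3p: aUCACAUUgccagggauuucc
mmu-miR-27a-3p: uUCACAGUggcuaaguuccgc
mmu-miR-27b-3p: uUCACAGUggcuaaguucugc
mmu-miR-24-3p: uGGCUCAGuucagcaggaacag
The miR-27 guides of the clusters share the seed and differ by 1 substitution in 21 bases, C19U, counted from the 5′ end with the base of miR-27a-3p first. A read that ends before this base cannot be assigned to either by its sequence, and how the provider's counting treats such reads or a mismatch is not given in the sources used here. The a over b ratios of miR-27, and likewise of miR-23, rest on the counts as the provider assigned them to the entries. The hairpins of miR-24 differ around a mature sequence that is the same in both, shown in capitals.
Mir24-2: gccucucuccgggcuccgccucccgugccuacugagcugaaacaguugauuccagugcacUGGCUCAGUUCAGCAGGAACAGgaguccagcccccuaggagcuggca
Mir24-1: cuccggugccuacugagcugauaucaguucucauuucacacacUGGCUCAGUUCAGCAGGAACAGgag
The counts of miR-24-3p are therefore a sum over both loci and cannot be divided between them.

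The libraries held 21429882 to 26434297 reads. The miRNA and piRNA table summed to 240027 to 372998 UMIs in TG Me-X04+ cells, 405351 to 682553 in TG Me-X04- cells and 424536 to 1192832 in WT. Of all reads, miRNAs took 7.39% to 13.6% in TG Me-X04+ cells, 17.0% to 25.2% in TG Me-X04- cells and 17.1% to 27.6% in WT. WT replicates 4 and 5 stood apart, with 0.487% and 0.422% of their reads on mRNA against 0.0692% to 0.136% in the other 13 libraries. The 5 miRNAs of the myeloid list, miR-223 and miR-142a among them, summed to 23859 to 46926 CPM in TG Me-X04+ cells, 88623 to 185152 CPM in TG Me-X04- cells and 109486 to 175979 CPM in WT. Of these 5, 4 were called lower in TG Me-X04+ against both other groups (median log2 fold changes of the list -1.59 and -1.95). The shares called over all entries are given with each comparison below. Endothelial and mural miRNAs summed to at most 491 CPM and erythroid ones to at most 224 CPM in any library. Of the endothelial and mural list, 1 was called higher and 1 lower in TG Me-X04+ against WT. The 3 oligodendrocyte miRNAs summed to 224 to 318 CPM in TG Me-X04+ cells, 237 to 509.6 CPM in TG Me-X04- cells and 363 to 522 CPM in WT, and 1 of them, miR-338-3p, was called lower in TG Me-X04+ against both other groups. The 7 neuronal miRNAs summed to 827 to 1243 CPM in TG Me-X04+ cells, 1618 to 3162 CPM in TG Me-X04- cells and 1873 to 4258 CPM in WT. In TG Me-X04+ cells 1 of the 7 was called higher and 2 lower against TG Me-X04-, and 3 lower against WT. The part of any of these lists in the results below was not tested. CPM (counts per 1000000) are UMI counts scaled by library size and by the trimmed mean of M-values (TMM) factor of each library.

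The first question was whether the miRNAs of the clusters differed between TG Me-X04+ and TG Me-X04- microglia. miR-23a-3p, miR-27a-3p and miR-24-3p were lower in the phagocytic cells, and miR-23b-3p and miR-27b-3p did not pass the test. In such bulk samples fewer cells that express a miRNA and less of it per cell cannot be told apart. In all, 3 of the 5 fell, where 8.57% of the 1435 tested entries were called lower and 9.97% were called in either direction (edgeR quasi-likelihood test, Benjamini-Hochberg adjusted p below 0.05, log2 fold change of 0.7 or more in either direction). The share depends on abundance: of 59 tested entries whose mean log2 CPM was 10 or more, to which all 5 belong, 46 were called lower and none higher, with a median of -1.32, against a median of -1.08 for the 5 members and 0.17 for all entries.

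Of the a cluster, miR-23a-3p stood at 1545, 1758, 795, 1545 and 1563 CPM in TG Me-X04+ replicates 1 to 5, at 6498, 4331, 2681, 5099 and 4301 CPM in TG Me-X04- cells, and at 4955, 7054, 6987, 5795 and 7586 CPM in WT. Every TG Me-X04+ library was below every library of the other groups, and replicate 3 was lowest within both TG groups. How many other entries separated in this way was not counted. The means were 1441 ± 372 CPM in TG Me-X04+ cells and 4582 ± 1387 CPM in TG Me-X04- (SD, n = 5 each). miR-23a-3p fell by 1.67 on the log2 scale in TG Me-X04+ against TG Me-X04- (SE 0.26, edgeR adjusted p = 1.9e-04), the largest change among the 5, and was lower in 5 of 5 mice.

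miR-27a-3p, the neighbouring product, stood at 564, 752, 217, 429 and 487 CPM in TG Me-X04+ cells, at 1589.7, 1218, 610.5, 1064 and 984 CPM in TG Me-X04- cells, and at 992, 1588, 1584, 1392 and 1929 CPM in WT. It was lower in TG Me-X04+ in 5 of 5 mice, with the groups overlapping because TG Me-X04- replicate 3 lay below TG Me-X04+ replicate 2. It fell by 1.16 on the log2 scale against TG Me-X04- (SE 0.29, edgeR adjusted p = 0.0115).

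miR-24-3p, the product of both loci, stood at 3218, 2833, 1119.8, 2296 and 2900.2 CPM in TG Me-X04+ cells, at 7503, 4627, 2855, 5198 and 5986 CPM in TG Me-X04- cells, and at 5482, 7041, 6832, 4851 and 4865 CPM in WT. It was lower in TG Me-X04+ in 5 of 5 mice and fell by 1.08 on the log2 scale (SE 0.28, edgeR adjusted p = 0.0153). The call was lost without TG Me-X04- replicate 1, the highest library of its group (-0.92, edgeR adjusted p = 0.0561).

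Of the b cluster, miR-23b-3p stood at 959.8, 1329.8, 438, 949 and 1244 CPM in TG Me-X04+ cells, at 1814, 1374, 735, 1088 and 1275 CPM in TG Me-X04- cells, and at 1164, 1436, 1358, 1138 and 1428 CPM in WT. All 3 groups overlapped. The log2 fold change was -0.35 (SE 0.27, edgeR adjusted p = 0.71, 95% interval -0.88 to 0.17). The TMM-scaled value was nevertheless lower in TG Me-X04+ in 5 of 5 mice. Scaled by library size alone, miR-23b-3p stood at 1253 to 1834 CPM in TG Me-X04+ cells and 873 to 1175 CPM in TG Me-X04- cells.

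miR-27b-3p stood at 2277, 3119, 967, 1622 and 2311 CPM in TG Me-X04+ cells, at 2929.6, 2381, 1387, 1998 and 1948 CPM in TG Me-X04- cells, and at 1377, 1899, 2169, 1763 and 2391 CPM in WT. It overlapped in all groups and was lower in TG Me-X04+ in 3 of 5 mice. The log2 fold change was -0.05 (SE 0.27, edgeR adjusted p = 0.998; 95% interval -0.59 to 0.49).

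**Figure D1:**
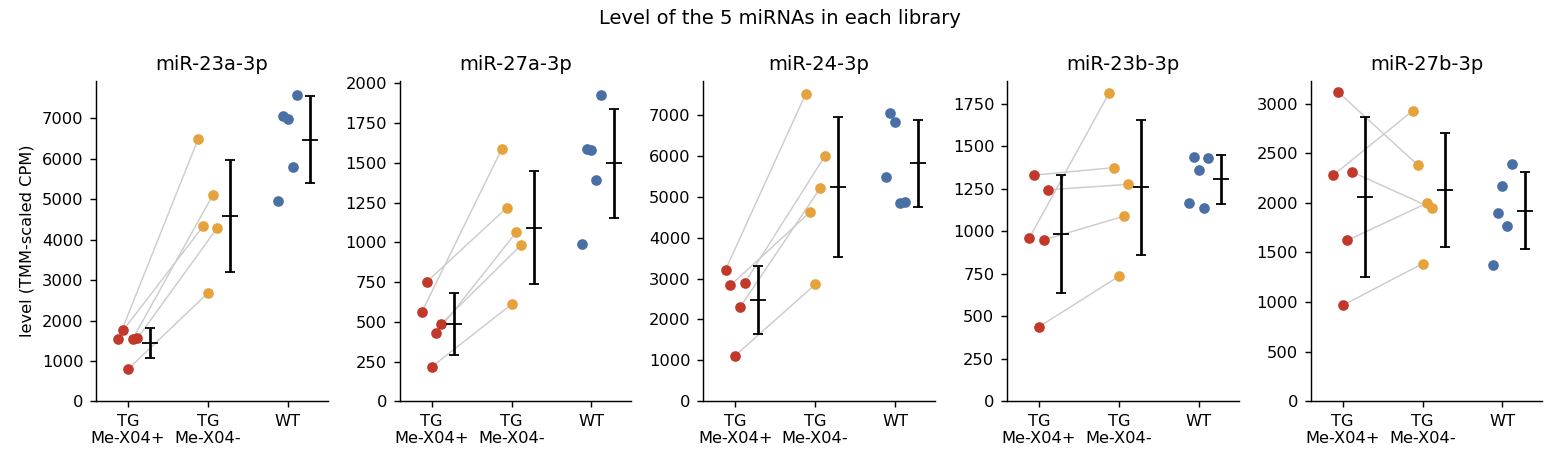
Level of each miRNA (TMM-scaled CPM, linear axis) in each library, TG Me-X04+ left, TG Me-X04- in the middle and WT right; grey lines join the libraries of a mouse, and black marks give the mean and SD of 5 libraries. miR-23a-3p is at 795 to 1758 CPM in TG Me-X04+ cells, below the 2681 to 6498 CPM of TG Me-X04-, while the groups overlap for miR-23b-3p and miR-27b-3p.

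These levels, and the counts of mice that go with them, are relative to TMM factors. The factors had a mean of 1.81 in TG Me-X04+ cells, 0.83 in TG Me-X04- cells and 0.72 in WT. With library size in their place, the median over the tested entries was higher by 1.11 in this comparison, and miR-23b-3p (0.72) and miR-27b-3p (0.99) were called higher in TG Me-X04+ cells. Of all 1435 tested entries, 484 were then called higher and 16 lower. miR-23a-3p was not called only through the limit on the fold change (-0.56, edgeR adjusted p = 0.0029). miR-27a-3p (-0.10, edgeR adjusted p = 0.595) and miR-24-3p (0.0014, edgeR adjusted p = 0.993) were not called either. With the total of all RNA classes as library size the median was higher by 0.91, miR-23a-3p was still called lower (-0.74), and miR-27b-3p was called higher (0.83), while miR-27a-3p was not called (-0.26, edgeR adjusted p = 0.296). So the direction of miR-23b-3p, miR-27b-3p and miR-24-3p turned with the scaling, while miR-23a-3p and miR-27a-3p stayed below 0. miR-23a-3p kept an edgeR adjusted p under 0.05 in all 3 scalings, and miR-27a-3p only with TMM. Under each of the 3 scalings the fold changes of miR-23a-3p and miR-27a-3p were below those of miR-23b-3p and miR-27b-3p. The 5 miRNAs together took 1.21% ± 0.124 of the UMIs in TG Me-X04+ cells, 1.11% ± 0.0939 in TG Me-X04- cells and 1.21% ± 0.172 in WT (SD, n = 5 each).

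**Figure D2:**
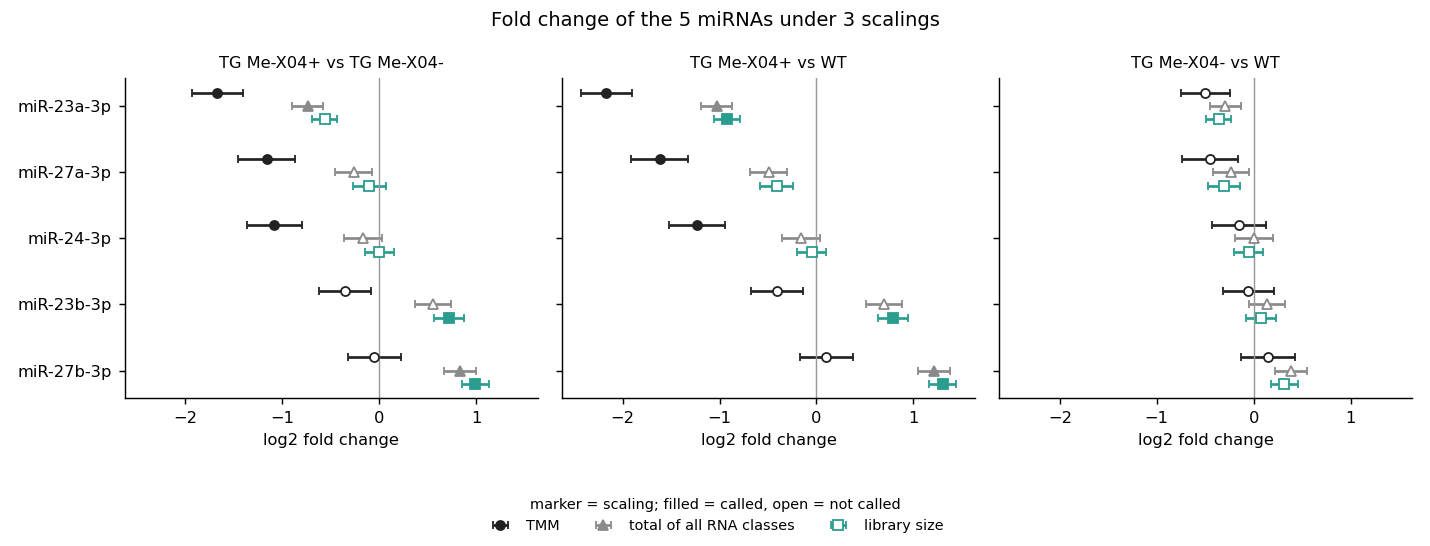
Log2 fold change of the 5 miRNAs in the 3 comparisons, with bars of 1 SE, under TMM factors (circles), the total of all RNA classes (triangles) and library size (squares); filled markers were called and open ones were not. In TG Me-X04+ against TG Me-X04-, miR-23a-3p is at -1.67, -0.74 and -0.56 and miR-27b-3p at -0.05, 0.83 and 0.99.

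The a cluster was then compared with the b cluster inside each library, as a ratio of UMI counts in which the scaling cancels. Per UMI of miR-23b-3p there were 1.61, 1.32, 1.81, 1.63 and 1.26 UMIs of miR-23a-3p in TG Me-X04+ cells, 3.58, 3.15, 3.65, 4.69 and 3.37 in TG Me-X04- cells, and 4.26, 4.91, 5.15, 5.09 and 5.31 in WT. Every TG Me-X04+ library was below every other library. The log2 ratio was 0.60 ± 0.22 in TG Me-X04+ cells and 1.87 ± 0.22 in TG Me-X04- cells, a difference of -1.27 (SE 0.14; two-sided exact permutation test of the group labels, p = 0.00794, the lowest value it allows; p = 0.0136 after adjustment over 12 comparisons of ratios), lower in 5 of 5 mice.

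Per UMI of miR-27b-3p there were 0.248, 0.241, 0.225, 0.265 and 0.211 UMIs of miR-27a-3p in TG Me-X04+ cells, 0.543, 0.512, 0.440, 0.533 and 0.505 in TG Me-X04- cells, and 0.720, 0.836, 0.730, 0.790 and 0.807 in WT. No library of any group reached into another group. The log2 ratio was -2.08 ± 0.13 in TG Me-X04+ cells and -0.99 ± 0.12 in TG Me-X04- cells, a difference of -1.09 (SE 0.078, exact permutation, adjusted p = 0.0136), lower in 5 of 5 mice. When the mouse was kept as a block, the exact sign-flip test over 5 mice gave its smallest possible p, 0.0625, for both ratios (adjusted p = 0.0833).

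Among the 4 guides that belong to a single cluster, the a cluster held 39.5%, 36.1%, 41.9%, 43.4% and 36.6% of UMIs in TG Me-X04+ cells, 63.0%, 59.6%, 60.8%, 66.6% and 62.1% in TG Me-X04- cells, and 70.1%, 72.2%, 70.8%, 71.2% and 71.4% in WT. The b cluster thus held most of these UMIs in every TG Me-X04+ library and the smaller part in every other library. miR-24-3p took 33.2% ± 3.19 of the UMIs of the 5 miRNAs in TG Me-X04+ cells, 36.4% ± 3.09 in TG Me-X04- cells and 34.3% ± 4.89 in WT, with overlapping groups.

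**Figure D3:**
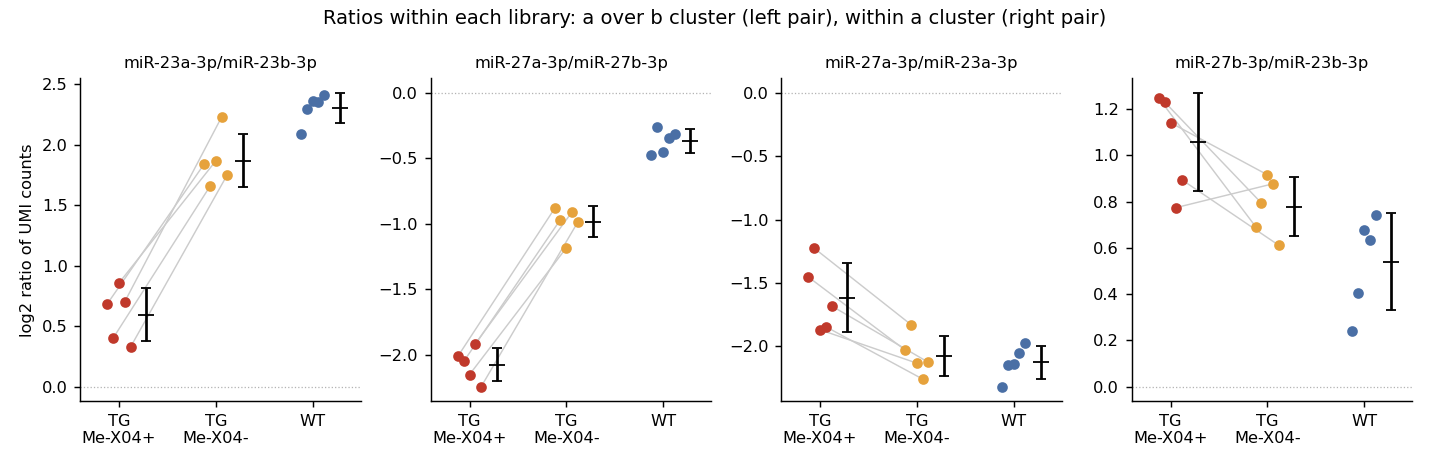
Log2 ratios of UMI counts within each library, TG Me-X04+ left, TG Me-X04- in the middle and WT right, with grey lines joining the libraries of a mouse and black marks for the mean and SD of 5 libraries. The a over b ratios average 0.60, 1.87 and 2.30 for miR-23 and -2.08, -0.99 and -0.37 for miR-27, and the ratios within a cluster shift less.

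The order of the levels changed with the groups. In TG Me-X04+ the order was miR-24-3p, miR-27b-3p, miR-23a-3p, miR-23b-3p and miR-27a-3p, with miR-24-3p above miR-27b-3p in 4 of 5 libraries and every other neighbour in order in 5 of 5. In TG Me-X04- it was miR-24-3p, miR-23a-3p, miR-27b-3p, miR-23b-3p and miR-27a-3p, each step holding in 5 of 5 libraries. In WT miR-23a-3p was above miR-24-3p in 4 of 5 libraries, and miR-27a-3p above miR-23b-3p in 4 of 5, with miR-27b-3p between these pairs in 5 of 5. Counts of different miRNAs also carry the ligation and amplification bias of each sequence, so these orders are of counts.

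Guides of the same cluster were compared with each other next. In the a cluster, the log2 ratio of miR-27a-3p to miR-23a-3p was -1.62 ± 0.27 in TG Me-X04+ cells and -2.08 ± 0.16 in TG Me-X04- (SD, n = 5 each), a difference of 0.46 (SE 0.14, exact permutation, adjusted p = 0.0317). This call was lost with read counts in place of UMIs (0.40, adjusted p = 0.0529), with the mouse kept as a block (0.46, exact sign-flip adjusted p = 0.0833) and in 7 of the 10 cases of leaving out a library (0.36 to 0.52, adjusted p up to 0.0635). In the b cluster, the log2 ratio of miR-27b-3p to miR-23b-3p was 1.06 ± 0.21 in TG Me-X04+ cells and 0.78 ± 0.13 in TG Me-X04- cells, a difference of 0.28 that did not pass (SE 0.11, exact permutation, adjusted p = 0.0762).

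TG Me-X04- cells were compared with WT cells next, with labelled age differing along with genotype. None of the 5 miRNAs was called (0 of 5 by edgeR, 0 at an unadjusted p under 0.05 and 0 by DESeq2), where 0.139% of all entries were. The log2 fold changes were -0.50 for miR-23a-3p (SE 0.25), -0.45 for miR-27a-3p (SE 0.29), -0.15 for miR-24-3p (SE 0.28), -0.05 for miR-23b-3p (SE 0.27) and 0.15 for miR-27b-3p (SE 0.27), all at an edgeR adjusted p of 0.998. The 95% interval of miR-23a-3p, a normal approximation, ran from -0.996 to -0.0031, although the edgeR unadjusted p was 0.0622.

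The ratios, whose spread between libraries was smaller, did differ. The log2 ratio of miR-27a-3p to miR-27b-3p was -0.99 ± 0.12 in TG Me-X04- cells and -0.37 ± 0.093 in WT, a difference of -0.62 (SE 0.067, exact permutation, adjusted p = 0.0136). That of miR-23a-3p to miR-23b-3p was 1.87 ± 0.22 in TG Me-X04- cells and 2.30 ± 0.13 in WT, a difference of -0.43 (SE 0.11, exact permutation, adjusted p = 0.0238), with TG Me-X04- replicate 4 inside the WT range. Without WT replicates 4 and 5 the differences were -0.59 and -0.38, and the adjusted exact permutation p-values were 0.0536 and 0.0779. With 5 against 3 libraries the exact test has fewer arrangements, so its lowest possible p is higher. The ratios within a cluster did not pass (0.052 for miR-27a-3p to miR-23a-3p, exact permutation adjusted p = 0.571, and 0.24 for miR-27b-3p to miR-23b-3p, adjusted p = 0.0779).

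TG Me-X04+ cells differed from WT cells in the same 3 miRNAs as from TG Me-X04- cells, a comparison that shares the TG Me-X04+ libraries. In all, 3 of 5 fell, where 11.7% of entries were called lower and 15.4% in either direction, and where 48 of the 59 abundant entries were called lower (median -1.67, against -1.23 for the 5 miRNAs). miR-23a-3p fell by 2.17 on the log2 scale (SE 0.26, edgeR adjusted p = 6.6e-06), miR-27a-3p fell by 1.62 (SE 0.30, adjusted p = 4.7e-04) and miR-24-3p fell by 1.23 (SE 0.29, adjusted p = 0.00405). For these 3 miRNAs every TG Me-X04+ library was below every WT library. The share of all entries that separated in this way was not counted, so whether this is particular to them cannot be said. miR-23b-3p was at -0.41 (SE 0.27, edgeR adjusted p = 0.43) and miR-27b-3p at 0.10 (SE 0.27, adjusted p = 0.92). Scaled by library size alone, miR-23a-3p was still called lower (-0.92), and miR-23b-3p (0.79) and miR-27b-3p (1.30) were called higher. This scaling called 28 of the 1435 tested entries lower and 644 higher, with a median of 1.65.

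The a over b ratios differed most in this comparison. The log2 ratio of miR-23a-3p to miR-23b-3p was lower in TG Me-X04+ by a difference of -1.71 (SE 0.11) and that of miR-27a-3p to miR-27b-3p by -1.71 (SE 0.071), which leaves 0.307 and 0.306 of the WT ratio (exact permutation, adjusted p = 0.0136 for both). Without WT replicates 4 and 5 the differences were -1.65 and -1.68, and the adjusted exact permutation p was 0.0536 for both. Here too, 5 against 3 libraries left the exact test a higher lowest possible p. Within a cluster, the log2 ratio of miR-27a-3p to miR-23a-3p was higher by 0.51 (SE 0.14) and that of miR-27b-3p to miR-23b-3p by 0.52 (SE 0.13), with an exact permutation adjusted p of 0.0136 for both.

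The other arms of the hairpins were counted far less often. A hairpin gives a duplex, of which the guide arm is kept on Argonaute and the passenger arm is mostly degraded, and in these hairpins the 3p arm is the guide. Of the 5p arms and antisense products listed, 6 entries could be tested (miR-23a-5p, miR-23b-5p, miR-27a-5p, miR-27b-5p, miR-24-2-5p and miR-3074-5p), and edgeR called 0 of the 6 in each comparison. In TG Me-X04+ against TG Me-X04- none was at an unadjusted p under 0.05 and DESeq2 called 0. In TG Me-X04+ against WT 1 was at an unadjusted p under 0.05, miR-24-2-5p, and DESeq2 called the same 1 entry. In TG Me-X04- against WT the counts were 1, miR-23b-5p, and 0. Scaled by library size alone, 3 of the 6 were called in TG Me-X04+ against TG Me-X04- cells and 4 were called in TG Me-X04+ against WT, all higher. Of the 1435 tested entries, this scaling called 484 and 644 higher in these comparisons. Without WT replicates 4 and 5, miR-3074-5p was called lower in TG Me-X04+ against WT (-1.10, edgeR adjusted p = 0.0314). miR-24-1-5p, the only arm that would mark the b cluster copy of miR-24, was listed at 0 in 11 of 15 libraries and was not tested. Nor was miR-3074-1-3p, from the strand opposite Mir24-1, which was listed at 0 in 9 of 15 libraries and reached at most 16 UMIs. miR-24-2-5p, of the a cluster copy, was at 42.0 to 102.5 CPM in TG Me-X04+ cells, 41.5 to 71.7 CPM in TG Me-X04- cells and 0 to 47.1 CPM in WT.

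miR-23a-5p, the passenger of the miR-23a duplex, was the most abundant of the 5p arms and stood at 171, 239, 264, 295 and 274 CPM in TG Me-X04+ cells, at 167, 224, 299, 251 and 259.5 CPM in TG Me-X04- cells, and at 184, 201, 219, 197 and 161 CPM in WT. All groups overlapped. Its log2 fold change was 0.051 in TG Me-X04+ against TG Me-X04- (SE 0.20, edgeR adjusted p = 0.998) and 0.38 against WT (SE 0.20, edgeR adjusted p = 0.28), beside -1.67 and -2.17 for the guide of the same hairpin. There were 9.04, 7.35, 3.01, 5.23 and 5.71 UMIs of miR-23a-3p per UMI of miR-23a-5p in TG Me-X04+ cells, 38.8, 19.3, 8.97, 20.3 and 16.6 in TG Me-X04- cells, and 26.9, 35.1, 31.9, 29.4 and 47.1 in WT. Every TG Me-X04+ library was below every WT library, and each was below the TG Me-X04- library of its mouse, while across mice the TG groups touched at 9.04 and 8.97. Scaled by library size alone, the passenger was called higher in TG Me-X04+ cells, at 1.16 against TG Me-X04- and 1.73 against WT, where the medians over all tested entries were 1.28 and 1.65. The ratio of the arms does not depend on the scaling, but it sets an abundant entry against a rarer one. With TMM factors, entries whose mean log2 CPM was 10 or more had a median of -1.32 against TG Me-X04- and -1.67 against WT. The medians over all tested entries were 0.17 and 0.27. miR-23a-3p belongs to these abundant entries and miR-23a-5p does not. Whether the ratio fell more than those of other pairs of such abundance was not tested.

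**Figure D4:**
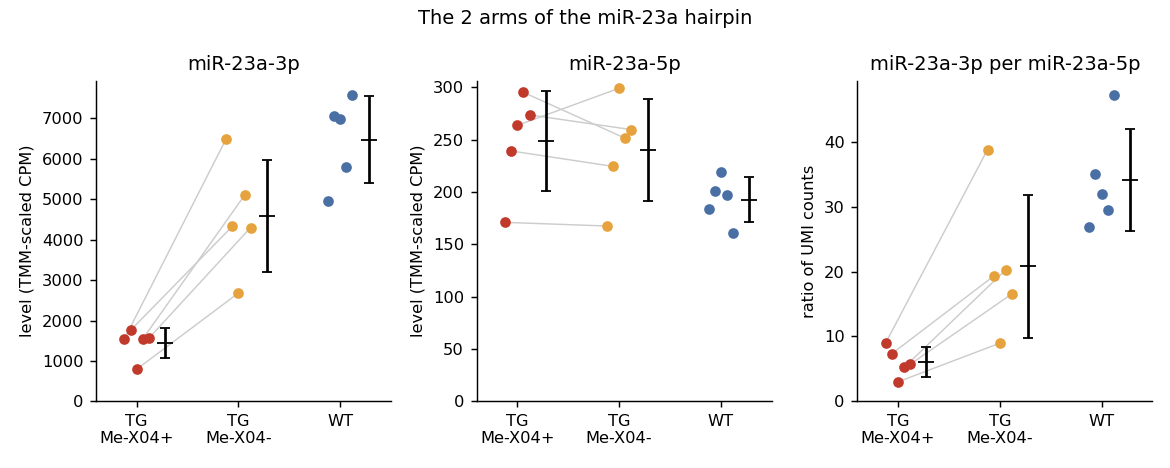
The guide miR-23a-3p (left) and the passenger miR-23a-5p (middle) in TMM-scaled CPM, and their ratio of UMI counts (right), for each library of TG Me-X04+, TG Me-X04- and WT; grey lines join the libraries of a mouse and black marks give the mean and SD of 5 libraries. The passenger stays within 161 to 299 CPM in all 15 libraries, and the ratio averages 6.07 in TG Me-X04+ cells, 20.8 in TG Me-X04- cells and 34.1 in WT.

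Likeness across libraries was then described for each guide. Over the 15 libraries and 1011 other miRNA entries whose mean log2 CPM was 5 or more, the entries most like miR-23a-3p were miR-26b-5p, miR-15a-5p and miR-30c-5p (Pearson r of TMM-scaled log2 CPM 0.993, 0.992 and 0.992), and those most like miR-27a-3p were miR-148b-3p, miR-101c and miR-26a-5p (r 0.981, 0.977 and 0.976). miR-24-3p was most like let-7d-5p, let-7g-5p and let-7f-1-3p (r 0.987, 0.987 and 0.967). miR-23b-3p was most like let-7e-5p, let-7i-5p and let-7a-5p (r 0.905, 0.888 and 0.881), and miR-27b-3p most like let-7i-5p, miR-23b-3p and miR-7654-3p (r 0.873, 0.824 and 0.759).

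Each guide correlated more closely with its cluster mate than with its homologue of the other cluster. The mates had an r of 0.965 in the a cluster and 0.824 in the b cluster, whereas miR-23a-3p and miR-23b-3p had an r of 0.715 and miR-27a-3p and miR-27b-3p an r of 0.544. Entries outside the clusters were often closer than the mate. Among 1011 entries, miR-27a-3p took place 33 for miR-23a-3p, and miR-23a-3p place 11 for miR-27a-3p. miR-27b-3p took place 13 for miR-23b-3p, and miR-23b-3p place 2 for miR-27b-3p. For miR-23b-3p the difference was small, and it was as close to miR-27a-3p (r = 0.826) and miR-24-3p (r = 0.839) as to its mate. These values are descriptive, since the 15 points share the group differences and the scaling factors.

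Entries outside the clusters were also looked up by seed in the RefSeq table. The seed of miR-24-3p was shared by miR-6413, miR-6410 and miR-6369 among the tested entries, whose levels reached at most 63.1, 34.0 and 141.9 CPM in any library. None of the 3 was called in any comparison; miR-6369 came closest in TG Me-X04+ against WT, with a log2 fold change of 0.67 under the limit of 0.7 (edgeR adjusted p = 0.0494).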

How the data were processed

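Groups and mice came from the labels. The authors trimmed and counted reads with the Qiagen Data Analysis Center and deposited UMI counts and read counts per entry, neither normalized, with reads per RNA class; edgeR 3.24.3 and GRCm38 are named in the processing notes of the submitters. How mismatches or multiple matches were handled is not given in the sources used here. The deposited counts hold no value between 1 and 9 and 31.3% of UMI values were listed at 0, so a 0 can hide up to 9 UMIs. The members and lists were chosen with earlier results of these data known.

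The UMI counts of all 1994 entries were fitted at once with edgeR 4.0.16 (R 4.3.3): filterByExpr, which kept 1435, TMM factors, 15 libraries in 1 fit, the quasi-likelihood F-test and Benjamini-Hochberg adjustment over all tested entries. Standard errors are those implied by the F statistic. Ratios within a library were compared by exact permutation (SciPy 1.17.1). Entries named were the 5 guides, every other product of the 2 loci with an entry, entries sharing a seed, and for each guide the 3 most similar entries. Alternatives were other scalings, DESeq2 1.42.0, other filters, read counts, 2 groups alone, a replicate block and each library left out. The replicate block matched libraries by replicate number, which stands for a mouse only between the TG groups. Leaving out WT replicates 4 and 5 together was chosen after seeing the data. The labels pair TG libraries of the same number as the same mouse, and the deviations of such pairs from their group means correlated at -0.17 to 0.25, against -0.26 to 0.27 between mice. None of the 30 within-group pairs of libraries agreed within sampling noise. The fits were tested on simulated data. Sampling of molecules limits the precision: the guides had 169 to 4997 UMIs in a library.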

Additional observations from a re-analysis of the deposited data

Results flagged for a closer look

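In groups of 5 libraries, a library was examined further when its gap to the nearest other library was over 0.71 of the range of its group, which chance alone gives in about 1 of 20 groups. Of 42 groups of values examined for the 5 miRNAs, miR-23a-5p, the ratios and the shares, 1 met this. miR-23a-3p was at 795 CPM in TG Me-X04+ replicate 3, against 1545 to 1758 CPM in the other 4 TG Me-X04+ libraries. The TMM factor of replicate 3 was 2.92, against 1.33 to 1.95 in these 4. Scaled by library size alone its miR-23a-3p was at 2271 CPM, inside their 2146 to 2987 CPM. Without replicate 3 the log2 fold change of miR-23a-3p against TG Me-X04- was -1.53, beside -1.67 with all libraries.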

How the results depend on the processing

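The values below are log2 fold changes or differences of log2 ratios unless called counts. Scaled by library size alone, 0 of the 5 miRNAs were called lower and 2 higher in TG Me-X04+ against TG Me-X04-, and 1 lower and 2 higher in TG Me-X04+ against WT. With the total of all RNA classes these counts were 1 lower and 1 higher in both comparisons. Of all 1435 tested entries, library size called 16 lower and 484 higher in the first comparison, and 28 lower and 644 higher against WT. The total of all RNA classes called 25 lower and 410 higher, and 37 lower and 640 higher against WT. Of the directions, library size turned those of miR-23b-3p (0.72), miR-27b-3p (0.99) and miR-24-3p (0.0014) in TG Me-X04+ against TG Me-X04-, of miR-23b-3p in TG Me-X04+ against WT (0.79) and of miR-23b-3p in TG Me-X04- against WT (0.075). The total of all RNA classes turned miR-23b-3p (0.56) and miR-27b-3p (0.83) in TG Me-X04+ against TG Me-X04-, and miR-23b-3p against WT, both in TG Me-X04+ (0.69) and TG Me-X04- (0.14). Both scalings move all entries together, by their construction. Near 0, upper quartile factors turned miR-23a-5p in TG Me-X04+ against TG Me-X04- (-0.037) and miR-27b-3p in TG Me-X04+ against WT (-5.6e-05), and read counts turned miR-23b-3p in TG Me-X04- against WT (0.016). The replicate block, in which TG and WT libraries share a number and not a mouse, turned miR-27b-3p in TG Me-X04+ against WT (-0.0045). Leaving out each library gave -0.25 to 0.12 for miR-27b-3p and -0.052 to 0.16 for miR-23a-5p in TG Me-X04+ against TG Me-X04-, -0.22 to 0.11 for miR-23b-3p and -0.32 to 0.019 for miR-24-3p in TG Me-X04- against WT, and -0.10 to 0.26 for miR-27b-3p in TG Me-X04+ against WT. The median-of-ratios factors, DESeq2, the other filters and the replicate block changed no call of the 5 miRNAs in any comparison.

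The a over b ratios kept their direction under every alternative run. With the replicate block the differences stay the same (-1.27 and -1.09 in TG Me-X04+ against TG Me-X04-, then -0.43 and -0.62 for TG Me-X04- against WT, -1.71 and -1.71 in TG Me-X04+ against WT, for miR-23 and miR-27, and for the within-cluster ratios 0.46 in the first comparison and 0.51 and 0.52 in the last), and the calls were lost because 5 pairs cannot go below an exact p of 0.0625. In the comparisons with WT these pairs share a replicate number and not a mouse, so the block has no meaning there. Leaving out WT replicates 4 and 5 gave -0.38 and -0.59 in TG Me-X04- against WT and -1.65, -1.68, 0.59 and 0.62 in TG Me-X04+ against WT, none past the threshold with 5 against 3 libraries. For miR-27a-3p to miR-23a-3p in TG Me-X04+ against TG Me-X04-, read counts gave 0.40 and leaving out each library 0.36 to 0.52. For miR-27b-3p to miR-23b-3p this range was 0.23 to 0.35 there and 0.16 to 0.29 in TG Me-X04- against WT, with a call after removal of replicate 4 of TG Me-X04+ in that comparison and of replicate 5 of TG Me-X04- in the other. For miR-27a-3p to miR-23a-3p in TG Me-X04- against WT it was -0.0094 to 0.098. The cause was not tested.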

Other observations

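The following comparisons were chosen after the values were seen and carry no test. The a over b ratio of the passenger arms, miR-23a-5p per miR-23b-5p, was 4.38 ± 0.302 in TG Me-X04+ cells, 4.12 ± 1.20 in TG Me-X04- cells and 5.63 ± 2.24 in WT (SD, n = 5 each), with overlapping groups, whereas the same ratio of the guides was 1.53 ± 0.231, 3.69 ± 0.591 and 4.94 ± 0.410. The counts behind the passenger ratio were low, with 10 to 63 UMIs of miR-23b-5p in a library. miR-23b-3p per miR-23b-5p was 18.2 ± 8.09 in TG Me-X04+ cells, 23.7 ± 17.1 in TG Me-X04- cells and 37.7 ± 12.8 in WT.

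miR-3074-5p, which is read from the strand opposite Mir24 and overlaps miR-24-3p by 20 bases, was counted at 2.69 to 4.79 reads per UMI over the 15 libraries. For miR-24-3p the reads per UMI were 5.62 to 17.8, and in each library they exceeded those of miR-3074-5p.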
